A study of Arabidopsis thaliana with 15 samples.

Results

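The genes described here are the UDP-dependent glycosyltransferases of family 1 (UGT) and the beta-glucosidases (BGLU) of Arabidopsis thaliana. A gene was included where its probe set was annotated with 1 gene symbol and that symbol began with UGT or BGLU and a digit. This gave 67 genes, 47 UGT and 20 BGLU, each with 1 probe set, out of 13513 probe sets with a single annotated gene. All 67 matched a locus of the RefSeq gene table, which holds 58 genes with a UGT symbol and 40 with a BGLU symbol, so neither family was followed in full.

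Plants store many small molecules as sugar conjugates. UGT enzymes attach a sugar, usually glucose from UDP-glucose, to hormones, phenylpropanoids, flavonoids and defence compounds, which makes them more soluble and usually inactive or transportable. Beta-glucosidases remove glucose again, and depending on the member they release hormones from vacuolar or endoplasmic reticulum stores, free monolignols for the wall, or start the breakdown of glucosinolates and other defence glucosides.

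Leaf disks were cut at 1 mm diameter from rosette leaves of 25-day-old Col-0 seedlings and cultured in a medium that leads leaf cells to form xylem. The medium held 1.25 mg/L of the auxin 2,4-D, 0.25 mg/L of the cytokinin kinetin and 10 µM of bikinin, which blocks the GSK3-type kinases and so turns on brassinosteroid responses. Disks were taken at 0, 12, 24, 36 and 48 h, and each time has 3 of the 15 arrays. All groups were wild type, and disks cultured without the 3 compounds were not analysed here, so what the compounds did cannot be told apart from what cutting, culture or passing time did.

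RNA was measured on a 1-colour Affymetrix array, and each value is a signal in linear units scaled to the same trimmed mean on every array (500.04 to 500.06). Log2 signals of arrays from the same time correlated at 0.886 to 0.954, and those of 0 h arrays with later arrays at 0.562 to 0.707. Changes below are differences of mean log2 signals ± the standard error of the limma fit, with 3 arrays at each time, and a gene was called as changed at an adjusted p under 0.05 (limma, Benjamini-Hochberg over 17829 probe sets). The labels do not say that the arrays of a time came from separate cultures, so the p-values reflect no more than the spread among these arrays, and that spread may be technical. The disks are mixed tissue, and fewer cells of a type cannot be told apart from less RNA per cell. All 4 measured genes of the leaf mesophyll list (LHCB4.2, PSAN, PRK and HPR, genes of photosynthesis) were lower at every later time, and their summed signal went from 76421 to 105032 at 0 h to 976 to 1814 at 48 h. All 3 measured genes of the xylem wall list (IRX15, IRX15-L and GUT2, genes of xylan synthesis) were higher at 36 and 48 h, and their summed signal went from 293 to 371 at 0 h to 3092 to 4178 at 48 h. The phloem gene SWEET11 and the guard cell gene FMA were lower at 48 h, and 0 of the 3 measured genes of ER bodies (NAI1, NAI2 and PYK10) were called by limma at any of the 4 times. Some marker signals were near background, with a lowest value of 4.17 in the xylem wall list at 0 h and 1.78 in the ER body list at 12 h. Both lie under the filter value of 30.7, below which signals are uncertain, so these genes were not shown to be detected at those times. The part of these marker shifts in the results below was not tested.

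Of the 67 genes, 39 UGT and 14 BGLU had a group mean of at least 30.7 at 1 time or more and were tested. Among called UGT genes more rose than fell at 12 h, and more were lower than higher at 48 h. Called BGLU genes were more often higher than lower at 48 h, but by sign alone 7 of the 14 tested were raised. Called probe sets as a whole were also more often higher than lower at both times. At 12 h against 0 h, 11 UGT genes rose and 6 fell, which is 43.6% of the 39, where 45.6% of all tested probe sets were called, 23.7% up and 21.9% down. Among the 14 BGLU genes 3 rose and 3 fell. By 48 h against 0 h, 7 UGT genes were higher and 13 lower, and 6 BGLU genes were higher and 1 lower, beside 57.0% of all probe sets called, 33.3% up and 23.7% down. Under median centring of the arrays, 6 BGLU genes were higher and 2 lower at 48 h, and of all probe sets 27.8% were called up and 27.4% down.

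At the times between, 7 UGT genes were higher and 8 lower at 24 h against 0 h, and 3 BGLU genes were higher and 2 lower, beside 49.6% of all probe sets called, 27.4% up and 22.2% down. At 36 h against 0 h, 5 UGT genes were higher and 10 lower and 5 BGLU genes were higher and 3 lower, beside 56.2% of all probe sets, 32.3% up and 23.9% down. These 4 comparisons share their 0 h arrays. The median log2 change of the tested UGT genes was 0.34 in the comparison of 12 h, 0.12 of 24 h, -0.21 of 36 h and -0.88 of 48 h with 0 h. The medians of all tested probe sets at these times were -0.03, 0.07, 0.18 and 0.22. The BGLU medians were -0.28, -0.14, 0.31 and -0.01.

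**Figure D1:**
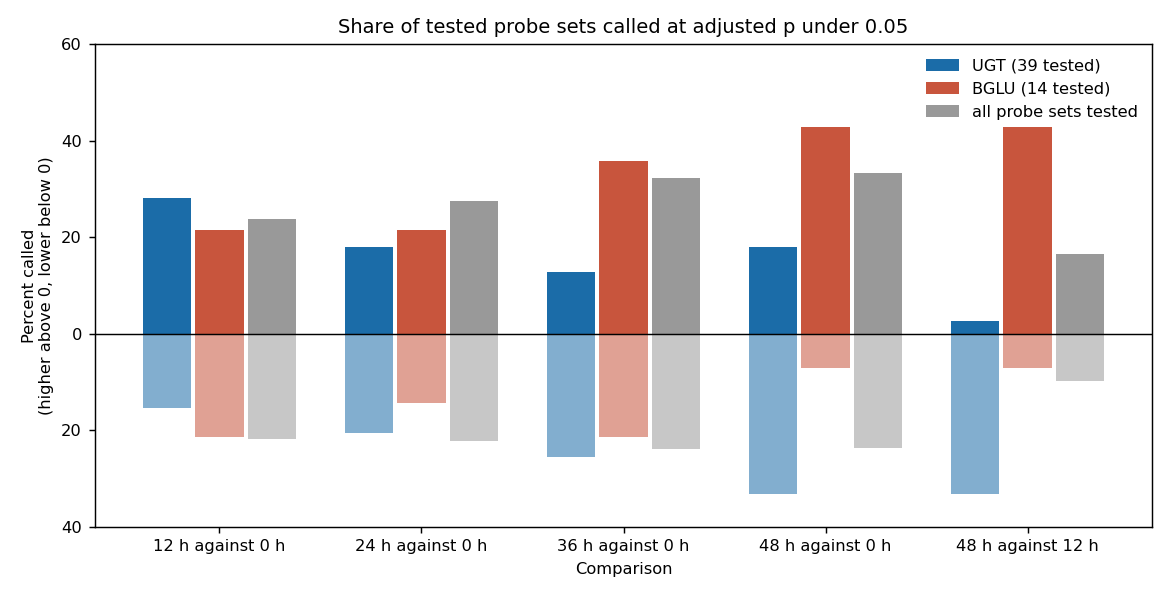
Share of tested genes called at an adjusted p under 0.05 in 5 comparisons, in percent, for 39 UGT genes, 14 BGLU genes and all 17829 tested probe sets, with genes that rose above 0 and genes that fell below 0. At 12 h against 0 h the UGT bars are mostly higher (28.2% up, 15.4% down). At 48 h against 12 h they are mostly lower (2.6% up, 33.3% down), and these comparisons share the 12 h arrays. The BGLU bars are largest above 0 at 48 h (42.9% in both comparisons of 48 h).

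The families parted most between 12 and 48 h. In that comparison 1 UGT gene rose and 13 fell, and 6 BGLU genes rose and 1 fell, beside 26.4% of all tested probe sets called, 16.5% up and 9.87% down. The median change was -1.05 for the UGT genes, 1.16 for the BGLU genes and 0.05 for all probe sets. Centring the arrays on their medians moved the median of all probe sets to -0.22 and their calls to 11.1% up and 17.2% down, and gave 0 higher and 17 lower UGT genes and 5 higher and 1 lower BGLU genes. The count of called UGT genes was 9 without replicate 1 of 48 h.

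The time of the highest group mean was counted too, without a test. The comparisons of 12 h with 0 h and of 48 h with 12 h share the 12 h arrays, and this count uses them too. A gene high on those arrays by noise would be counted as rising, then as falling, and as highest at 12 h. These counts are thus not independent of each other. For 17 of the 39 UGT genes (43.6%) that time was 12 h, compared with 17.2% of all tested probe sets, and for 4 it was 48 h. For the BGLU genes it was 48 h in 5 of 14 (35.7%), compared with 23.2% of all tested probe sets, and 12 h in 2.

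**Figure D2:**
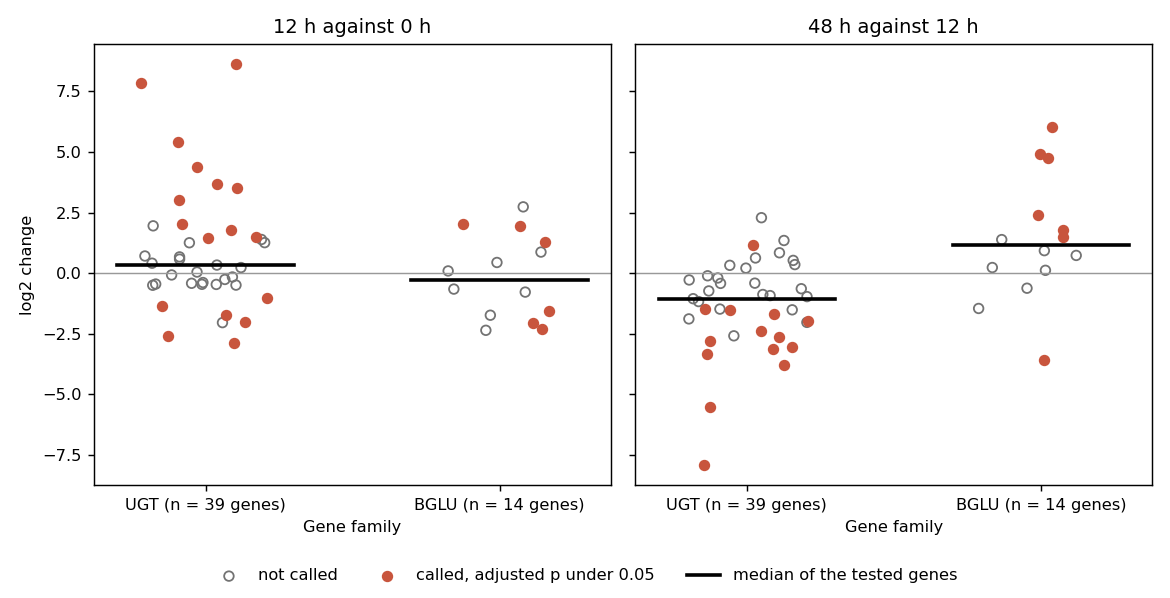
Log2 change of each tested gene from 0 to 12 h and from 12 to 48 h, by family, with called genes filled and the median of each family as a bar. From 12 to 48 h the UGT points lie mostly below 0 (median -1.05) and the BGLU points mostly above 0 (median 1.16). Both panels use the same 12 h arrays.

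UGT73C1, whose enzyme glucosylates cytokinins in vitro and conjugates breakdown products of TNT, had the highest rise of any tested gene of the 2 families at 12 h. Its signals were 1.58, 2.82 and 3.55 at 0 h, 984, 709 and 1416 at 12 h, 183, 447 and 161 at 24 h, 1.91, 59.6 and 9.62 at 36 h, and 1.61, 23.9 and 1.84 at 48 h. All arrays of 12 and 24 h lay above all others, and at 36 and 48 h only replicate 2 stayed clearly above the 0 h signals. The change was 8.63 ± 1.15 at 12 h (adjusted p = 6.61e-05) and 6.55 ± 1.15 at 24 h (adjusted p = 0.000487). From 12 to 48 h it fell by 7.91 (adjusted p = 0.00052), and without replicate 2 of 48 h the change was -9.17. The 0 h signals lie below the filter value, so the size is uncertain: with 16 added to every signal the rise at 12 h was 5.76.

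UGT76B1, which glucosylates isoleucic acid, salicylic acid and N-hydroxypipecolic acid and so tempers immune signalling, was also near background in fresh disks. Its signals were 1.67, 32.8 and 1.85 at 0 h, 899, 987 and 1430 at 12 h, 64.1, 308 and 916 at 24 h, 43.6, 65.8 and 204 at 36 h, and 53.1, 108 and 84.1 at 48 h. Every later array lay above every 0 h array. The rise of 7.86 ± 1.12 at 12 h (adjusted p = 0.000104) was 9.27 without replicate 2 of 0 h, which was the bright one, and 5.46 with 16 added to every signal. At 48 h the gene was still 4.07 ± 1.12 above 0 h (adjusted p = 0.00765), or 5.48 without that array. The fall from 12 to 48 h, by 3.79 (adjusted p = 0.0257), lost its call without replicate 2 or 3 of 12 h (-3.85 and -3.58) or replicate 1 or 3 of 48 h (-3.50 and -3.84).

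UGT76E12 also had its highest group mean at 12 h, from a brighter start. Its signals were 56.6, 292 and 754 at 0 h, 3094, 2327 and 3804 at 12 h, 313, 1453 and 1333 at 24 h, 49.1, 360 and 141 at 36 h, and 26.05, 156 and 67.7 at 48 h. The 12 h arrays lay above all other arrays, and the 36 and 48 h arrays overlapped those of 0 h. It rose by 3.70 ± 0.99 at 12 h (adjusted p = 0.00866), with 2.68 to 4.55 on leaving out any 1 array, and fell by 5.53 from 12 to 48 h (adjusted p = 0.00182).

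**Figure D3:**
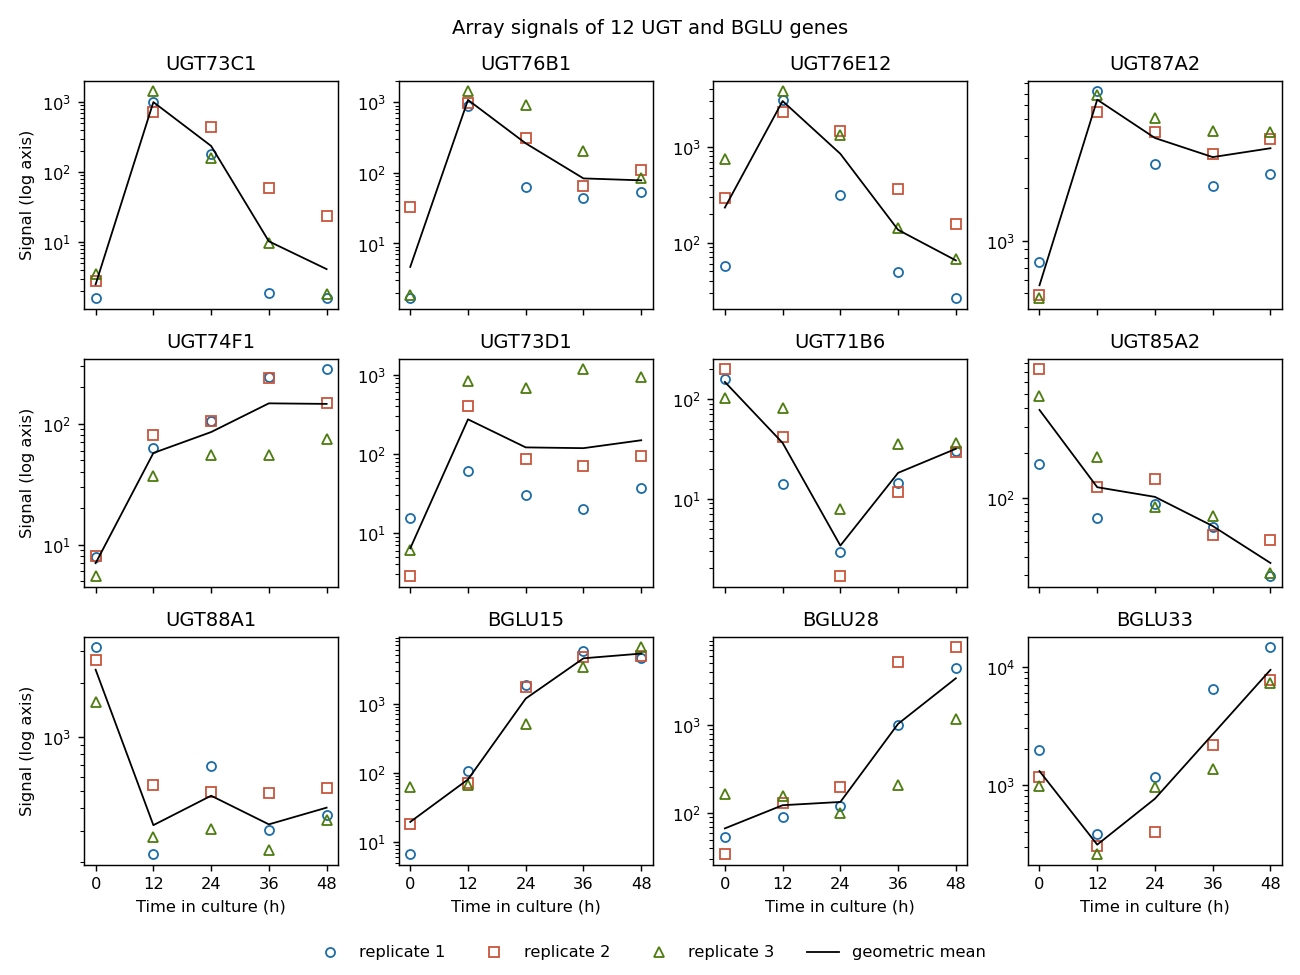
Signals of 12 UGT and BGLU genes on each of the 15 arrays against time in culture (log axis), with 1 marker shape per replicate number and a line through the geometric means. UGT73C1, UGT76B1 and UGT76E12 are highest at 12 h, UGT74F1 and UGT87A2 stay high, UGT71B6, UGT85A2 and UGT88A1 drop, and BGLU15, BGLU28 and BGLU33 are highest at 48 h.

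Its relative UGT76E11 changed in both directions. The group means were 361 at 0 h, 1024 at 12 h and 102 at 48 h. It rose by 1.51 ± 0.43 at 12 h (adjusted p = 0.0128) and was lower at 48 h against 0 h (-1.82, adjusted p = 0.00326). Its fall at 36 h against 0 h, by 1.21, lost its call without replicate 1 or 2 of 0 h (-1.16 and -1.13) or replicate 1 or 3 of 36 h (-1.18 and -0.94).

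A further 2 genes were called as higher at 12 h and at no later time. UGT74D1, which glucosylates auxins, rose by 1.77 ± 0.41 at 12 h (adjusted p = 0.00382) and fell by 1.96 from 12 to 48 h (adjusted p = 0.00467). UGT73B1 rose by 1.45 ± 0.56 at 12 h (adjusted p = 0.0499), with 12 h arrays that overlapped those of 0 h. That call was lost without replicate 1 or 2 of 0 h (1.57 and 0.91) or replicate 2 or 3 of 12 h (1.19 and 1.21).

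5 of the 39 tested UGT genes were called above 0 h at all 4 later times, beside 18.4% of all tested probe sets. UGT87A2, known for its part in flowering time, was the most even of them across replicates. Its signals were 753, 489 and 469 at 0 h, 7200, 5467 and 6828 at 12 h, 2760, 4209 and 5071 at 24 h, 2054, 3158 and 4264 at 36 h, and 2416, 3838 and 4235 at 48 h. All later arrays lay above all 0 h arrays, with those at 12 h highest. The changes from 0 h were 3.53 ± 0.34 at 12 h (adjusted p = 6.16e-06), then 2.80 and 2.44, and 2.61 at 48 h (adjusted p = 3.89e-05).

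UGT74F1, which glucosylates salicylic acid, had its highest group mean at 36 h. Its signals were 7.87, 8.05 and 5.46 at 0 h, 63.1, 80.7 and 36.9 at 12 h, 106, 106 and 55.4 at 24 h, 246, 238 and 55.03 at 36 h, and 282, 149 and 74.4 at 48 h. No later array reached down to the 0 h arrays, and replicate 3 was the lowest at each later time. The changes from 0 h ran from 3.03 ± 0.60 at 12 h (adjusted p = 0.00125) to 4.39 at 36 h and 4.38 at 48 h (adjusted p = 6.42e-05), and with 16 added to every signal that at 48 h was 2.83. Its difference between 48 and 12 h, 1.35, was not called (adjusted p = 0.117) but had an adjusted p of 0.00552 with the replicate number as a block.

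UGT73B4, a relative of UGT73C1 that also conjugates products of TNT, was higher at all 4 later times. The signals were 4.44, 23.2 and 74.6 at 0 h, 191, 528 and 699 at 12 h, 132, 300 and 219 at 24 h, 110, 303 and 182 at 36 h, and 137, 536 and 209 at 48 h. The 0 h arrays were widely spread and still lay below all later arrays. The rise was 4.39 ± 0.88 at 12 h (adjusted p = 0.00138) and the changes at the other 3 times were 3.21 to 3.66. Without replicate 1 of 0 h, the dimmest, the change at 36 h went from 3.21 to 2.13.

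UGT73D1 was the least even. Its signals were 15.4, 2.82 and 6.01 at 0 h, 60.0, 408 and 840 at 12 h, 30.1, 87.5 and 673 at 24 h, 20.1, 70.1 and 1172 at 36 h, and 37.4, 94.5 and 933 at 48 h. Replicate 3 was far above the other two at 24, 36 and 48 h. The rise at 12 h was 5.42 ± 1.65 (adjusted p = 0.0173), and the call was lost without replicate 2 of 0 h (4.83) or replicate 2 or 3 of 12 h (5.13 and 4.61). At 36 h the change was 4.21 (adjusted p = 0.0455) and 2.56 without replicate 3 of that time (adjusted p = 0.194). The calls at 24, 36 and 48 h were each lost on leaving out any of 4 or 5 single arrays and with 16 added to every signal.

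The largest fall at 24 h was that of UGT71B6, which forms the glucose ester of abscisic acid. Its signals were 159, 198 and 103 at 0 h, 14.2, 41.2 and 81.7 at 12 h, 2.95, 1.66 and 7.94 at 24 h, 14.6, 11.7 and 35.2 at 36 h, and 30.2, 29.2 and 36.0 at 48 h. All later arrays lay below all 0 h arrays, and the 24 h arrays lay below all others. The change from 0 h was -5.45 ± 0.66 at 24 h (adjusted p = 3.03e-05), -3.03 at 36 h and -2.23 at 48 h (adjusted p = 0.0119), and with 16 added to every signal that at 24 h was -3.04. The fall at 12 h, by 2.03 (adjusted p = 0.0238), lost its call without replicate 1 or 2 of 0 h (-1.98 and -1.82), without replicate 1 of 12 h (-1.35), and in a fit of only those groups (adjusted p = 0.0513).

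UGT71C5, another enzyme that conjugates abscisic acid, was lower at all 4 times and fell by 1.47 from 12 to 48 h (adjusted p = 0.00514). Its signals were 484, 704 and 745 at 0 h, 157, 256 and 364 at 12 h, 143, 107 and 184 at 24 h, 69.6, 75.1 and 98.0 at 36 h, and 86.9, 79.3 and 101 at 48 h. All 0 h arrays were above all later ones, and the 36 and 48 h arrays overlapped. The change was -1.37 ± 0.32 at 12 h (adjusted p = 0.0034), -2.98 at 36 h (adjusted p = 9.18e-06) and -2.84 at 48 h.

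UGT88A1 was lower at all 4 times. The signals were 3157, 2689 and 1573 at 0 h, 222, 543 and 279 at 12 h, 690, 491 and 308 at 24 h, 302, 488 and 235 at 36 h, and 366, 518 and 347 at 48 h. The 0 h arrays stood apart from the other 12 arrays, whose times overlapped. The change was -2.88 ± 0.42 at 12 h (adjusted p = 0.000129) and -2.55 at 48 h (adjusted p = 0.000251).

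In the UGT85A group 4 of 5 tested genes were lower at 48 h. UGT85A2 went from 168, 729 and 481 at 0 h to 72.7, 118 and 188 at 12 h, 90.7, 133 and 85.7 at 24 h, 63.7, 55.8 and 74.8 at 36 h and 29.5, 51.8 and 31.3 at 48 h. Replicate 1 of 0 h was low enough to lie within the range of 12 h. The change was -3.42 ± 0.49 at 48 h (adjusted p = 8.66e-05). At 12 h it was -1.73 (adjusted p = 0.0115), and the call was lost without replicate 2 of 0 h (-1.28) or replicate 1 of 12 h (-1.38) and in a fit of only those groups (adjusted p = 0.0723).

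UGT85A4 was lowest at 12 h. Its signals were 162, 116 and 141 at 0 h, 14.5, 20.1 and 43.2 at 12 h, 43.7, 53.6 and 49.8 at 24 h, 44.8, 44.6 and 50.8 at 36 h, and 62.5, 56.6 and 38.7 at 48 h. The 0 h arrays were above all others, and from 24 h on the arrays were close together. Its change was -2.57 ± 0.34 at 12 h (adjusted p = 5.95e-05) and -1.43 at 48 h (adjusted p = 0.00323). It was the UGT gene that rose from 12 to 48 h, by 1.15 (adjusted p = 0.0259), a call lost with centred arrays (0.88) and without replicate 1 or 2 of 12 h (0.80 and 1.04) or replicate 1 or 2 of 48 h (1.01 and 1.08).

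UGT85A5 was near background late in culture. Its signals were 229, 65.2 and 92.2 at 0 h, 20.6, 31.8 and 30.2 at 12 h, 3.93, 20.2 and 21.2 at 24 h, 12.2, 2.52 and 20.02 at 36 h, and 1.37, 1.23 and 18.2 at 48 h. All 0 h arrays were above the rest, and at 48 h replicate 3 stood apart from the other two. The change was -5.15 ± 1.06 at 48 h (adjusted p = 0.0012) and -2.57 with 16 added to every signal, since nearly all later signals lie under the filter value. The gene passed the filter only through its 0 h mean of 111. It was thus selected by the group in which it was high, and its fall from 0 h is no independent sign of change. At 24 h it was -3.23 (adjusted p = 0.0227), and this call was lost without replicate 1 of 0 h (-2.71) or of 24 h (-2.43).

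UGT72B3 was not called at 12 or 24 h and was lower at 36 and 48 h. Its signals were 144, 23.3 and 66.6 at 0 h, 46.0, 27.6 and 63.2 at 12 h, 26.6, 22.0 and 59.0 at 24 h, 8.997, 3.34 and 2.35 at 36 h, and 4.59, 2.60 and 29.0 at 48 h. The 36 h arrays were below all earlier ones, and replicate 3 of 48 h overlapped them. The change from 0 h was -3.87 ± 0.88 at 36 h (adjusted p = 0.00243) and -3.11 at 48 h (adjusted p = 0.00909), and with 16 added to every signal these were -1.96 and -1.64.

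UGT74B1, which makes the thiohydroximate S-glucosides that become glucosinolates, was lower from 24 h on. Its signals were 1886, 3288 and 2529 at 0 h, 652, 3131 and 4491 at 12 h, 1117, 785 and 868 at 24 h, 828, 672 and 502 at 36 h, and 510, 366 and 355 at 48 h. The 12 h arrays spanned the range of 0 h, and all arrays from 24 h on were below 0 h. The change was -2.63 ± 0.55 at 48 h (adjusted p = 0.0014). At 24 h it was -1.46 (adjusted p = 0.0435), and this call was lost without replicate 2 or 3 of 0 h (-1.26 and -1.45) or any 24 h array (-1.60, -1.35 and -1.42).

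UGT76C1, one of a pair of cytokinin N-glucosyltransferases, was lower at all 4 times, with a change of -1.03 at 12 h, -1.36 and -1.22 at the next 2 times and -1.31 ± 0.31 at 48 h (adjusted p = 0.003). The 12 h call was lost without replicate 1 or 2 of 0 h (-0.83 and -0.93) or replicate 2 of 12 h (-0.93). Its partner UGT76C2 was highest at 12 h, with a group mean of 562 against 376 at 0 h, a difference that was not called (adjusted p = 0.233). It then fell by 1.52 from 12 to 48 h (adjusted p = 0.0112). UGT84A3, which makes glucose esters of hydroxycinnamic acids, went from a group mean of 1038 at 12 h to 125 at 48 h, a change of -3.05 ± 0.66 (adjusted p = 0.00518).

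**Figure D4:**
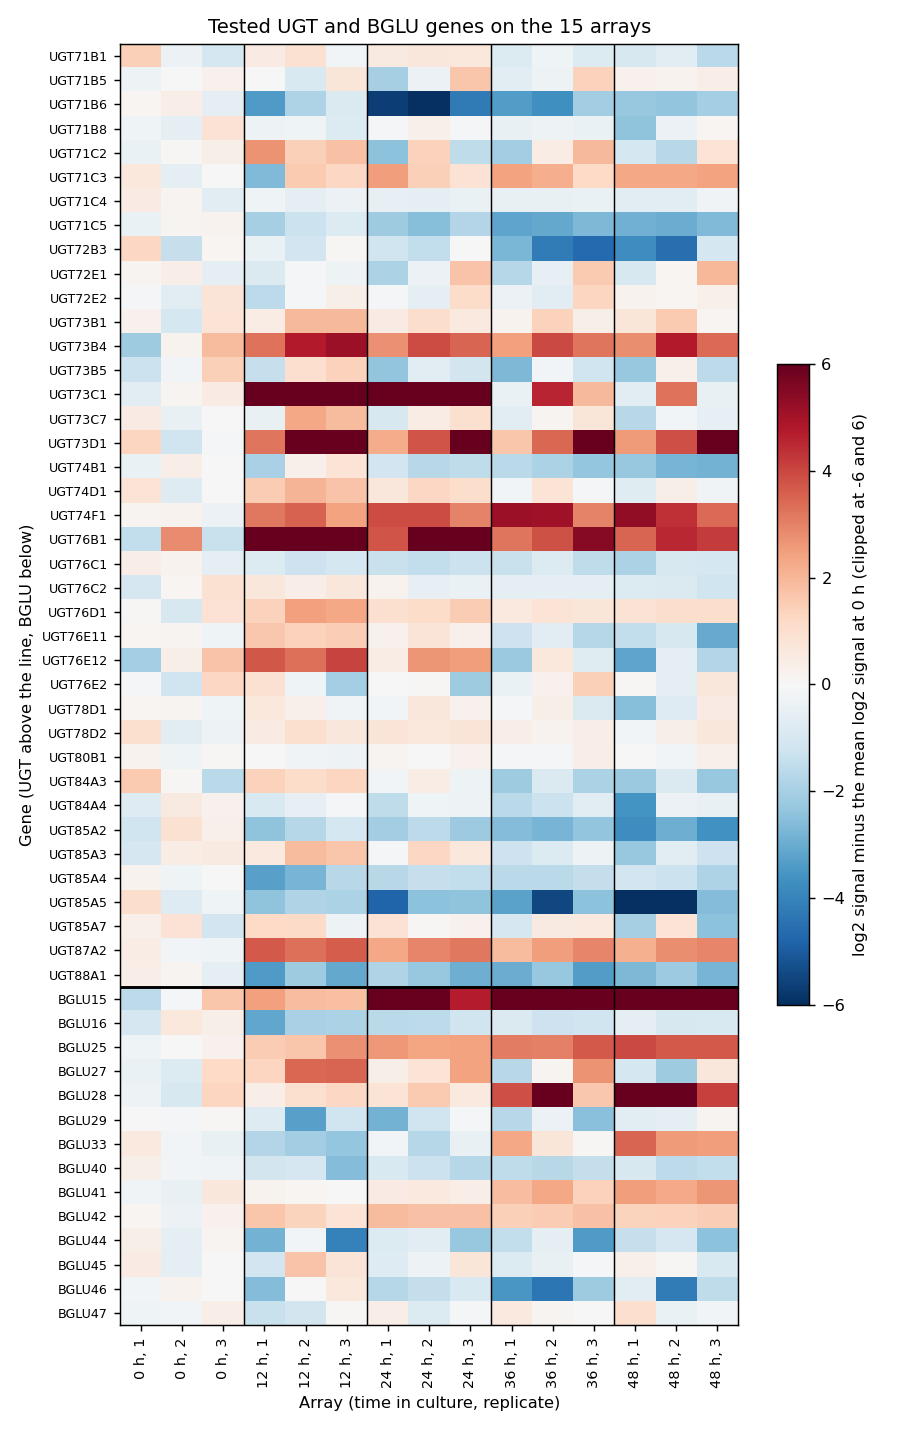
Log2 signal of each of the 53 tested genes on each array minus that gene's mean log2 signal at 0 h (clipped at -6 and 6), arrays in order of time and replicate. UGT73C1 is red at 12 and 24 h, UGT71B6 blue at 24 h, and BGLU15 red from 24 h on; UGT73D1 differs between replicates.

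BGLU15, which removes glucose from flavonol bisglycosides, had the largest change of the beta-glucosidases. Its signals were 6.59, 17.9 and 62.5 at 0 h, 107, 71.3 and 67.3 at 12 h, 1875, 1738 and 507 at 24 h, 5803, 4761 and 3338 at 36 h, and 4626, 4921 and 6489 at 48 h. The arrays of each time up to 36 h lay above all arrays of the time before, and those of 36 and 48 h overlapped. The change from 0 h was 5.93 ± 0.68 at 24 h (adjusted p = 2.07e-05) and 8.09 ± 0.68 at 48 h (adjusted p = 1.75e-06), a 272-fold difference of geometric means, and 7.08 with 16 added to every signal. The rise at 12 h was 2.04 (adjusted p = 0.0267) and was lost without replicate 1 or 2 of 0 h (1.26 and 1.98) or replicate 1 or 2 of 12 h (1.83 and 2.12) and in a fit of only those groups (adjusted p = 0.0851).

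BGLU28, which hydrolyses glucosinolates when sulfur is short, was called as higher from 36 h on. Its signals were 53.9, 34.2 and 166 at 0 h, 89.96, 131 and 159 at 12 h, 119, 200 and 101 at 24 h, 999, 5199 and 210 at 36 h, and 4412, 7542 and 1154 at 48 h. The 36 and 48 h arrays were above all earlier ones, and replicate 3 was the lowest at both times. The change from 0 h was 3.93 ± 1.00 at 36 h (adjusted p = 0.00502), or 5.08 without replicate 3 of that time and 2.76 without replicate 2. At 48 h it was 5.64 ± 1.00 (adjusted p = 0.00043).

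BGLU33, a vacuolar enzyme that frees abscisic acid from its glucose ester, moved in both directions. Its signals were 1958, 1175 and 970 at 0 h, 385, 307 and 258 at 12 h, 1167, 396 and 965 at 24 h, 6460, 2183 and 1356 at 36 h, and 14509, 7753 and 7329 at 48 h. The 12 h arrays were below all others and the 48 h arrays above all others. It fell by 2.07 at 12 h (adjusted p = 0.00878) and was 2.84 ± 0.56 above 0 h at 48 h (adjusted p = 0.000859), so that the change from 12 to 48 h was 4.91 (adjusted p = 0.000122).

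BGLU25 was above 0 h at every later time. Its signals were 144, 174 and 208 at 0 h, 491, 542 and 1171 at 12 h, 1061, 887 and 928 at 24 h, 1464, 1428 and 2218 at 36 h, and 2705, 2189 and 2188 at 48 h. All later arrays were above all 0 h arrays. The change from 0 h went from 1.97 ± 0.31 at 12 h (adjusted p = 0.000245) to 3.76 ± 0.31 at 48 h (adjusted p = 1.61e-06).

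2 further BGLU genes were higher late. BGLU42, which acts on scopolin in roots during induced systemic resistance, was above 0 h at all 4 times, by 1.28 at 12 h, 1.81 and 1.56 at the next 2 times and 1.40 ± 0.23 at 48 h (adjusted p = 0.000274). BGLU41 was not called at 12 or 24 h and was higher by 1.86 at 36 h (adjusted p = 0.000183) and by 2.48 ± 0.29 at 48 h (adjusted p = 2.11e-05), when its signals of 129, 113 and 143 were above those of 19.6, 16.9 and 36.4 at 0 h.

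BGLU16 and BGLU40 fell at 12 h, as did BGLU33. BGLU16 went from 241, 765 and 631 at 0 h to 55.3, 126 and 133 at 12 h, 159, 165 and 210 at 24 h, 271, 203 and 213 at 36 h and 322, 254 and 261 at 48 h. The 12 h arrays were below all others, and from 36 h the arrays overlapped those of 0 h. Its change was -2.32 ± 0.42 at 12 h (adjusted p = 0.00062) and -1.47 at 24 h (adjusted p = 0.0111), the latter lost without replicate 2 of 0 h (-1.14). The call at 36 h (-1.10, adjusted p = 0.039) was lost without replicate 2 or 3 of 0 h (-0.78 and -0.92) or any 36 h array (-1.23, -1.02 and -1.06).

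BGLU40 was lower at all 4 times. Its signals were 1795, 1247 and 1187 at 0 h, 647, 693 and 232 at 12 h, 739, 569 and 421 at 24 h, 479, 435 and 507 at 36 h, and 723, 468 and 500 at 48 h. The 0 h arrays stood above all others, whose times overlapped. The change was -1.56 ± 0.38 at 12 h (adjusted p = 0.00523) and -1.32 at 48 h (adjusted p = 0.0104), and the call at 24 h (-1.30, adjusted p = 0.0133) was lost without replicate 1 of 0 h (-1.12, adjusted p = 0.05) or replicate 3 of that time (-1.09, adjusted p = 0.0538).

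BGLU46, which hydrolyses monolignol glucosides, was dim throughout. Its signals were 31.9, 40.3 and 34.1 at 0 h, 5.77, 35.9 and 54.1 at 12 h, 10.6, 13.1 and 18.6 at 24 h, 3.18, 1.73 and 7.98 at 36 h, and 23.1, 1.93 and 12.2 at 48 h. Arrays from 24 h on were below those of 0 h, and at 36 h and in 1 array of 48 h the signal was close to 0. The change was -3.32 ± 0.93 at 36 h (adjusted p = 0.00874) and -1.35 with 16 added to every signal. The gene passed the filter only through its 0 h mean of 35.3, so it was selected by the group in which it was high and its fall is no independent sign of change. At 48 h it was -2.11 (adjusted p = 0.0688), and it was called there with 16 added (adjusted p = 0.0462) and with centred arrays (adjusted p = 0.0499).

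Ordered by subgroup, 10 of the 11 UGT genes that rose at 12 h belonged to UGT73, UGT74 and UGT76, the other being UGT87A2. At 12 h against 0 h 4 of 6 tested UGT73 genes, 2 of 3 UGT74 genes and 4 of 7 UGT76 genes rose, beside 23.7% of all tested probe sets, and UGT76C1 of these fell. In UGT71, 2 of 8 tested genes fell at 12 h and 0 rose, with a median change of -0.23, which is close to the 21.9% of all probe sets that fell. In UGT85 2 of 5 fell and 0 rose, with a median of -1.73, and UGT88A1 was the sixth UGT gene that fell. By 48 h against 0 h 4 of 5 UGT85 genes and 3 of 7 UGT76 genes were lower, beside 23.7% of all probe sets. The UGT85 count includes UGT85A5, which passed the filter only through its 0 h mean. The tested UGT72, UGT78, UGT80 and UGT84 genes numbered 8, of which 0 were called at 12 h (limma), beside 45.6% of all tested probe sets. Subgroups this small give counts only, and no test of a subgroup was made.

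Genes were also grouped into lists by known substrates or by a part in defence, and the list of salicylate and defence had the most rises. Of 6 tested, UGT74F1, UGT76B1, UGT73B4 and UGT76D1, which glucosylates dihydroxybenzoic acids, rose at 12 h, beside 23.7% of all tested probe sets. UGT73B5 and UGT71B1 were not called. UGT71C3, which glucosylates methyl salicylate, was not in the list and was not called at 12 h (0.05). The count thus depends on which genes were listed. UGT76D1 rose by 2.05 ± 0.40 at 12 h (adjusted p = 0.00109). It was also called at 24 h (1.20) and 48 h (0.99), but without replicate 2 of 0 h these were 0.73 (adjusted p = 0.102) and 0.52 (adjusted p = 0.214), and the 48 h call was lost also without replicate 1 of 0 h (1.04) or any 48 h array (1.05, 0.96 and 0.97), and that at 24 h without replicate 2 or 3 of 24 h (1.24 and 1.04).

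Among the 4 tested genes of the abscisic acid glucose ester, the conjugating UGT71B6 and UGT71C5 were lower at all 4 times, UGT71B8 was not called, and the deconjugating BGLU33 was lower at 12 h and higher at 48 h. Of the 3 tested cytokinin glucosyltransferases, UGT73C1 rose at 12 and 24 h, UGT76C1 was lower throughout, and UGT76C2 was lower at 48 h (-0.94, adjusted p = 0.0484). That last call was lost without replicate 2 or 3 of 0 h (-0.89 and -0.49) or any 48 h array (-1.02, -0.98 and -0.83).

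For monolignol and hydroxycinnamate glucosides, 8 genes were tested. None was called at 12 or 24 h by limma, beside 45.6% and 49.6% of all tested probe sets. UGT72B3 and BGLU46 were lower at 36 h, and UGT72B3 and UGT84A3 were lower at 48 h. These counts of 2 of 8 are close to the 23.9% and 23.7% of all probe sets that were lower at those times. UGT84A3 was -1.79 at 48 h against 0 h (adjusted p = 0.0332), lost without replicate 1 or 2 of 0 h (-1.01 and -1.77) or replicate 1 or 3 of 48 h (-1.57 and -1.54). UGT72E1 and UGT72E2, which glucosylate monolignols, and BGLU45, which hydrolyses their glucosides, were not called in any comparison. In the list of their biosynthesis genes 4 of 25 names were tested. CCR2, a cinnamoyl-CoA reductase, was lower at 24 and 48 h (-2.54 and -2.68), and HCT, a hydroxycinnamoyl transferase, at 24 and 36 h (-1.13 and -0.78). The 3 xylem wall genes given above were higher at 36 and 48 h.

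In the flavonoid group BGLU15 rose, while UGT78D1 and UGT78D2, the flavonol 3-O-rhamnosyl- and 3-O-glucosyltransferases, were not called in any of the 8 comparisons. UGT78D2 signals ran from 267 to 806 over the 15 arrays. The list of flavonoid and anthocyanin biosynthesis genes held 30 names, of which 4 matched a probe set and 3 were tested. Most of the list was thus not followed. All 3 rose at 24 h, beside 27.4% of all tested probe sets. DFR, dihydroflavonol reductase, was highest at 24 h with a change of 4.56 from 0 h. UGT80B1, a sterol glucosyltransferase, was not called either, with signals of 249 to 401.

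Other routes of hormone inactivation were also measured. Of 34 names in that list 4 were tested. GH3.1 and GH3.3, whose enzymes join auxin to amino acids, were higher at all 4 later times, with GH3.3 at 8.29 above 0 h at 12 h. WES1, a GH3 enzyme of the same kind, was lower at all 4, with -2.22 at 48 h. In the glucosinolate list 6 of 40 names were tested. Of these 3 were lower at 48 h and 0 higher, beside 23.7% of all probe sets lower and 33.3% higher. Among the 3 was the transporter gene GTR1 (-3.59), beside the fall of UGT74B1.

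Many members lie next to each other in the genome, and in no comparison was more than 1 run of neighbours called the same way throughout. At 48 h against 0 h 33.3% of all tested probe sets were called up and 23.7% down, and between neighbouring later times far fewer were called. The matching share for other neighbouring genes was not counted, so this count does not show that neighbours differ. In the RefSeq gene order 35 of the 67 genes formed 15 runs of adjacent members, and in 9 runs at least 2 genes were tested. On chromosome 1, UGT71C5 was lower by 2.84 at 48 h against 0 h and its neighbour UGT71C3, which glucosylates methyl salicylate, was higher by 2.34 ± 0.88 (adjusted p = 0.0379), with UGT71C4 between them at -0.49. The UGT71C3 call was lost without replicate 2 or 3 of 0 h (2.05 and 2.32) or any 48 h array (2.35, 2.36 and 2.30). From 12 to 48 h BGLU27 fell by 3.56 ± 1.08 (adjusted p = 0.0287) and its neighbour BGLU16 rose by 1.51 (adjusted p = 0.0194). Those calls were not stable: BGLU27 lost its call without replicate 2 or 3 of 12 h (-3.21 and -3.19) or replicate 1 or 2 of 48 h (-3.46 and -2.91), and BGLU16 without replicate 1 of 12 h (1.10) or of 48 h (1.40) and with centred (1.24, adjusted p = 0.0576) or quantile-normalised arrays (1.24, adjusted p = 0.0528).

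In 1 run all tested genes were called the same way at 48 h against 0 h, the pair UGT76C2 and UGT76C1, the first with the limits given above. UGT73B4 rose at all 4 times beside UGT73B5, which was not called. BGLU15 and BGLU28 were both higher at 36 and 48 h, and BGLU29 of the same run was not called. In the run of UGT85A7, UGT85A2, UGT85A5 and UGT85A3, UGT85A2 and UGT85A5 were lower from 24 h on and UGT85A7 was not called. For UGT85A5 the filter limit given above applies. UGT85A3 was lower at 48 h against 0 h (-1.41, adjusted p = 0.043), which was lost without replicate 2 or 3 of 0 h (-1.18 and -1.13) or replicate 1 or 3 of 48 h (-0.97 and -1.49), and it fell by 2.80 from 12 to 48 h (adjusted p = 0.00303).

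**Figure D5:**
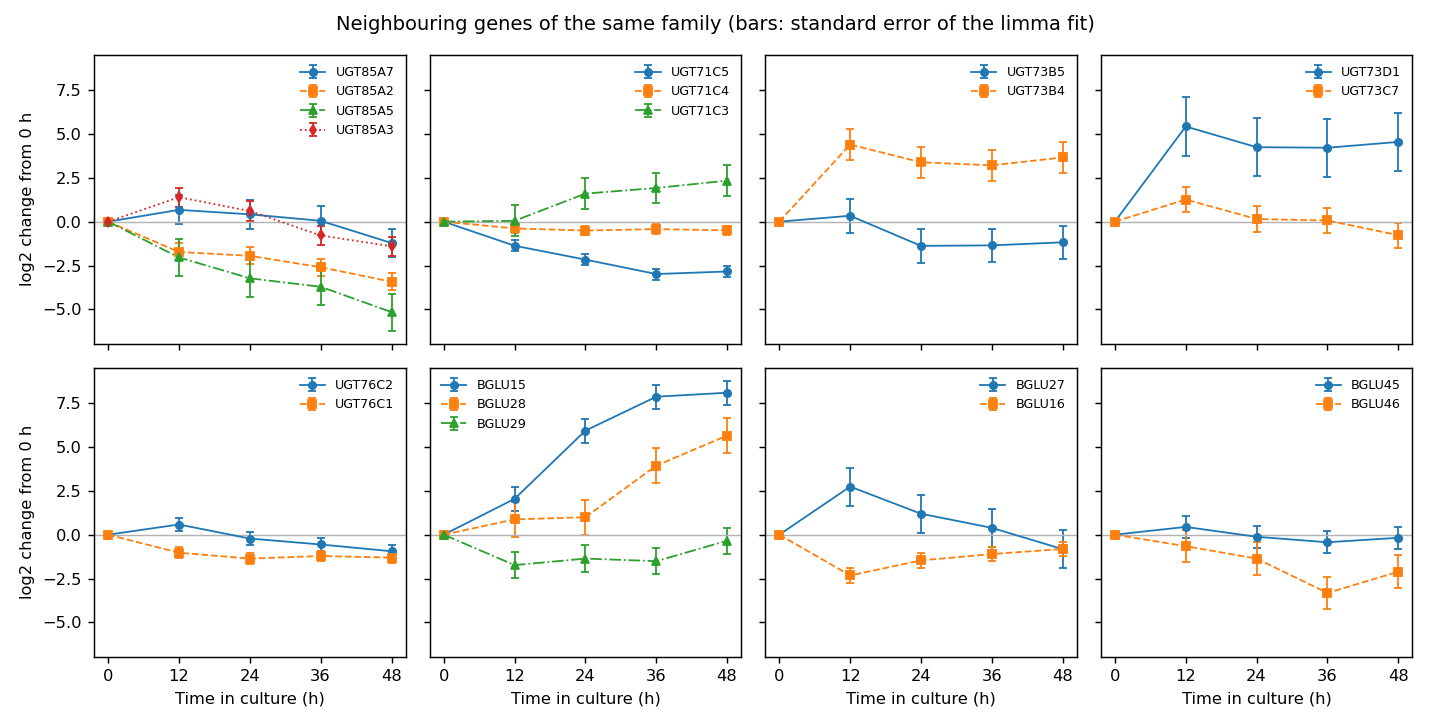
Log2 change from 0 h against time for 8 runs of adjacent genes of the same family, with bars for the standard error of the limma fit. UGT71C5 and UGT71C3, and BGLU27 and BGLU16 at 12 h, lie on opposite sides of 0, and UGT76C2 and UGT76C1 lie apart at 12 h (0.58 and -1.03) and closer at 48 h (-0.94 and -1.31).

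Few genes were called between neighbouring times after 12 h. From 12 to 24 h 1.23% of all tested probe sets were called, 0.993% up and 0.241% down, and of the members UGT71B6 fell by 3.42 ± 0.66 (adjusted p = 0.0311) and BGLU15 rose by 3.88 ± 0.68 (adjusted p = 0.0258). Both were lost without replicate 2 or 3 of 12 h or replicate 1 or 2 of 24 h (-3.33, -2.83, -3.32 and -2.91 for UGT71B6; 3.80, 3.76, 3.55 and 3.61 for BGLU15) and in a fit of only those groups (adjusted p = 0.211 and 0.182). The UGT71B6 call was also lost with 16 added to every signal (-1.47, adjusted p = 0.0644). From 24 to 36 h 0 members were called by limma, beside 0.112% of all probe sets, although 9 UGT genes (1 higher, 8 lower) and 5 BGLU genes (all higher) had an unadjusted p under 0.05, beside 7.27% of all probe sets higher and 4.50% lower. From 36 to 48 h 0 probe sets of any kind were called, and unadjusted p was under 0.05 for 0 UGT genes and for 1 BGLU gene, BGLU33, which was higher, beside 2.38% of all probe sets higher and 1.22% lower.

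Between 12 and 48 h, UGT72B3 fell by 2.62 (adjusted p = 0.0441) and UGT85A5 by 3.11 (adjusted p = 0.0461). Both calls were lost with 16 added to every signal (-1.21 and -0.99) and on leaving out any of 5 of the 6 arrays, with -1.90 to -2.94 for UGT72B3 and -2.44 to -3.31 for UGT85A5. UGT85A2 fell by 1.69 (adjusted p = 0.0232), a call lost without replicate 2 or 3 of 12 h (-1.69 and -1.35) or replicate 1 or 3 of 48 h (-1.54 and -1.59). BGLU15 and BGLU28 rose by 6.05 (adjusted p = 0.00012) and 4.77 (adjusted p = 0.0045), BGLU25 by 1.79 and BGLU41 by 2.38.

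In none of the 8 comparisons were 15 UGT and 4 BGLU genes called by limma. The matching share of all tested probe sets was not counted, so these counts say nothing particular about the families. The UGT genes were UGT71B1, UGT71B5, UGT71B8, UGT71C2, UGT71C4, UGT72E1, UGT72E2, UGT73B5, UGT73C7, UGT76E2, UGT78D1, UGT78D2, UGT80B1, UGT84A4 and UGT85A7. The BGLU genes were BGLU29, BGLU44, BGLU45 and BGLU47. Several varied widely within a time: BGLU44, which has beta-mannosidase activity, had 12 h signals of 309, 1970 and 132, and its change of -2.36 ± 0.92 at 12 h had an adjusted p of 0.0531. At 24 h UGT72E1 ran from 62.0 to 749. A p that misses the threshold does not show that these genes kept their level.

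The other 14 genes were too dim to test. They were UGT71C1, UGT72E3, UGT73C2, UGT76E1, UGT78D3, UGT84A1, UGT84B1, UGT84B2, BGLU19, BGLU24, BGLU31, BGLU32, BGLU36 and BGLU43. Their group means ran from 0.94 to 23.4, although 8 of them had at least 1 array above the filter value, with the highest at 87.9 for BGLU24. Just inside the filter were BGLU29, UGT71B8 and UGT71C2, with highest group means of 32.3, 33.4 and 35.0, and just outside were UGT73C2, BGLU43 and BGLU36, with 23.4, 22.4 and 21.8.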

How the data were processed

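RNA of the disks was measured on 15 arrays, 3 per time. The deposited values are signal intensities on a linear scale, which, per the submitters' processing notes, the authors computed in MAS5 and GCOS. No version is stated there, and detection calls were not used here. Scaling to one trimmed mean hides a change shared by most transcripts, and median signals ran from 122 to 170. Signals below 30.7 are uncertain, and so are folds that rest on them. The number of arrays limits the precision.

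The 64 control probe sets were left out. Probe sets were kept where the highest of the 5 group means (geometric) reached percentile 30 of all group means, 17829 of 22746. The log2 signals, with no offset, were fitted in limma 3.58.1 (R 4.3.3) to a mean per time, with all arrays in 1 fit, and p-values were two-sided and adjusted by Benjamini-Hochberg over all probe sets kept. The fit was also run on simulated data with independent noise on each array. That run cannot show how deviations shared between arrays affect the p-values. Genes were named through the platform annotation, and RefSeq TAIR10.1 gave loci and neighbours only.

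The members, gene lists and tests were chosen with earlier results of these data known. Signals by array were printed for UGT73C1, UGT71B6 and BGLU15, for the 4 highest and 4 lowest called UGT and the 2 highest and 2 lowest called BGLU changes against 0 h, and for up to 3 called each way between later times, 20 genes in all, and for UGT87A2, UGT74B1 and parts of BGLU41, BGLU44 and UGT72E1, chosen after their values were seen. The replicate number of the third 36 h array is not labelled, and it was left out where the number served as a block. Arrays with the same number deviated together (r from 0.014 to 0.496, 18 of 26 pairs over 0.1), and all such pairs between later times were over 0.1. The main fit took no account of this, so its p-values ignore a possible pairing. The number entered only in the fit with a block. Alternatives were an offset of 16, median centring, quantile normalization, no filter, percentile 50, a trended prior, fits of only the groups compared, the block, and leaving out each array.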

Additional observations from a re-analysis of the deposited data

How the results depend on the processing

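No called change of a member turned under any alternative. Centring turned the split of all probe sets from 12 to 48 h, from 2948 higher and 1759 lower to 1986 higher and 3058 lower, and most counts of called genes stayed within 1.5 times. Exceptions were the BGLU count at 24 h against 0 h without a filter (8), the UGT count at 48 h against 0 h with the filter at percentile 50 (13, of fewer genes tested), the UGT count from 12 to 24 h with an offset of 16, without a filter or in a fit of only those groups (0 each), the BGLU count from 12 to 24 h in that fit (0), and the UGT count from 24 to 36 h with the offset (1, UGT73C1 at -2.96). Leaving out 1 array gave 0 to 2 called UGT and 0 to 1 called BGLU genes from 12 to 24 h, 9 to 13 UGT and 5 to 7 BGLU genes from 12 to 48 h, and 12 to 20 UGT and 5 to 7 BGLU genes at 12 h. For the 20 genes named by the rule, leaving out an array gave 960 single-gene results, called or not. Of these 67 lost a call and 6 gained one, and the cause was not tested. The 960 include results that were never called, so 67 of 960 is not the share of calls lost. Calls of genes outside the 20, such as UGT73B1, UGT74B1 and BGLU27, were also lost, as given above. With the replicate number as a block (r of same-numbered arrays 0.014 to 0.496) 1 BGLU gene was called from 24 to 36 h, BGLU33 (2.21, adjusted p = 0.0464). That fit also gave calls for BGLU33 at 36 h (1.43) and UGT76E12 at 24 h (1.87) and 48 h (-1.83) against 0 h. It ended the call of BGLU16 at 36 h (-0.93), and changed no other named call except UGT74F1 from 12 to 48 h. The third 36 h array was left out of it. For the 36 h calls, the block cannot be told apart from the loss of that array. Signal over background limits the changes of UGT73C1, UGT85A5, UGT71B6, UGT76B1, BGLU46, UGT72B3, UGT73D1, UGT74F1, UGT71C3, UGT73B4 and BGLU15, among others, whose low groups lie under the filter value. No array served as a control without the compounds.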

Other observations

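Family members outside the rule, because their probe set carries another symbol or several, add the following values. UF3GT (UGT79B1), an anthocyanin xylosyltransferase, had signals of 3.49, 8.11 and 6.03 at 0 h and 682, 428 and 235 at 24 h. Its change from 0 h was 5.35 ± 0.68 at 12 h (adjusted p = 4.63e-05), then 6.21 and 4.34, and 2.49 at 48 h (adjusted p = 0.0077), so it was highest at 24 h, as was DFR of the same pathway. GT72B1 (UGT72B1), which glucosylates chlorinated phenols, was not called at 12 or 24 h and was lower at 36 h (-1.88, adjusted p = 0.00411) and 48 h. Its 48 h signals were 76.4, 214 and 261 against 1123, 622 and 660 at 0 h (adjusted p = 0.00124). From 12 to 48 h its change was -3.295 (adjusted p = 0.000413). SGT (UGT80A2), a sterol glucosyltransferase, and PYK10 (BGLU23), the main ER body enzyme of roots, were not called at any of the 4 times against 0 h. The probe set shared by UGT73B2 and UGT73B3 was higher at all 4 times, by 2.56 ± 0.49 at 12 h (adjusted p = 0.00103) and 2.07 at 48 h.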
